A study of Homo sapiens with 12 samples.

Results

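The 46 genes of the ATP-binding cassette (ABC) transporter family in KG1a cells are described here, out of 28395 genes in the deposited table. They are the genes whose symbol is ABC followed by a subfamily letter from A to G and a number, a rule that reads the symbol and no measured value. KG1a is an established human cell line derived from a myeloid leukaemia and keeps the look of early blood progenitors. The cells, labelled wild type and cultured in RPMI with 20% fetal bovine serum, were sorted for CD34 and then by surface CD38 and CLL-1. Cells low in both are called dim and cells high in both bright. Each subset was taken from normoxia, whose oxygen level is not given in the sources used here, or from hypoxia at 3% oxygen, with 3 libraries in each of the 4 groups. The study asked how oxygen affected the 2 subsets. Both subsets come from a single cell line. Nothing in the labels tells whether a replicate was a culture of its own, and p-values here describe only the spread between these libraries, which may be technical.

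ABC transporters bind and hydrolyse ATP at cytosolic domains and use that cycle to move substrates across a membrane. Many A and G members carry lipids and sterols, the B and C subfamilies hold the multidrug pumps P-glycoprotein (ABCB1) and MRP1 (ABCC1) along with mitochondrial transporters, and D members feed fatty acids to peroxisomes. E and F members have no membrane part and act on ribosomes. In acute myeloid leukaemia, ABCB1, ABCC1 and ABCG2 are known for exporting anthracyclines and other drugs from blasts, and ABCG2 for exporting the dye that marks side-population cells.

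All values below are normalized values: the authors divided read counts by a size factor per library and rounded to whole numbers. Library sums ran from 31828256 to 32560463, and depth, estimated from gaps in the series of rounded values, was 25231033 to 39510464 counted reads. CD34 lay between 17184 and 20882 in dim and between 28691 and 32370 in bright libraries, CD38 between 2 and 25 in dim and between 60 and 161 in bright, and CLEC12A, which encodes CLL-1, between 9 and 40 over all 12. All 9 markers listed for a CD34-positive myeloid line reached 10 in some library. The bright and dim libraries also differed in markers of other cell types. Of 15 epithelial markers 13 were above 0 somewhere, with SCGB1A1 and SCGB3A1 at 0 in all libraries, and their sum ran from 39 to 105 in normoxic dim, 228 to 6521 in normoxic bright, 942 to 16587 in hypoxic dim and 54 to 1060 in hypoxic bright libraries. All 8 T and NK cell markers were present, at a sum of 11443 to 15574 in the dim and 6564 to 8235 in the bright libraries. The sum of 18 skeletal muscle markers, all present, was 1944 to 6674 in normoxic dim, 441 to 4555 in normoxic bright and 332 to 803 in the hypoxic libraries. Neutrophil granule markers, 5 of 6 above 0, summed to 15138 in 1 hypoxic dim library and to at most 1754 in the other 11. The part of these markers in the results was not tested, except where values without the libraries concerned are given. In such bulk samples, fewer cells of a type and less RNA per cell cannot be told apart.

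KG1a cells carried high levels of a few ABC transcripts and none or almost none of many others. The family summed to between 0.237% and 0.296% of a library's total, and ABCA2, an endolysosomal lipid transporter linked to estramustine resistance, made up 34.6% to 43.9% of that sum. Of the 46 genes, 31 reached 10 in at least 3 libraries and were tested, and 15 were not. The tested ones were 8 of 12 A, 7 of 9 B, 6 of 12 C, all 4 D, the single E, all 3 F and 2 of 5 G members. ABCC12 and ABCC13 were at 0 in all 12 libraries, and 10 members stayed under 10 throughout, among them the canalicular sterol pair ABCG5 and ABCG8 and the sulfonylurea receptors ABCC8 and ABCC9. Per kilobase of exon length, ABCA2 had the highest mean level of the family, 4032, above 97.0% of all tested genes. On that scale it was followed by ABCF1 at 2034, ABCF2 at 1106, ABCD4 at 1002 and ABCC1 at 953, with ABCB1 at rank 7 and 846, above 81.7% of tested genes. ABCG2 stood at rank 28 of the 31, with 7.45 per kilobase, and only 11.7% of tested genes were lower.

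Bright and dim cells differed at 10 ABC genes in hypoxia and at 2 in normoxia, counts that fell to 5 without hypoxic bright 1 and, in normoxia, to 0 without any 1 of the dim libraries and to 1 without normoxic bright 2 or 3. Without normoxic bright 3 both calls were lost and ABCG1 passed instead, at 0.82 with an adjusted p of 0.0386 (limma). Without normoxic bright 1 ABCA1 took the place of ABCB4, at -0.73 with an adjusted p of 0.0223. In normoxia 2 of the 31 tested members passed an adjusted p under 0.05 (limma), 1 higher and 1 lower in bright cells, which is 6.45% beside 6.66% of all 15057 tested genes, of which 2.88% were higher and 3.79% lower. In hypoxia 10 passed, 6 higher and 4 lower, which is 32.3% beside 26.5% of all tested genes, of which 12.9% were higher and 13.6% lower. Both shares lie near those of all tested genes and are no result about the family as such. The median log2 difference, bright over dim, was -0.06 over the members and -0.01 over all genes in normoxia, and 0.02 against -0.03 in hypoxia. At an unadjusted p under 0.05 the members counted 10 in normoxia and 13 in hypoxia. The summed T and NK cell markers were lower in bright than in dim libraries at both oxygen levels. Of 7 tested singly, 5 were called lower in normoxia, and 5 lower and 1 higher in hypoxia. Their part in the differences of the ABC genes was not tested.

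**Figure D1:**
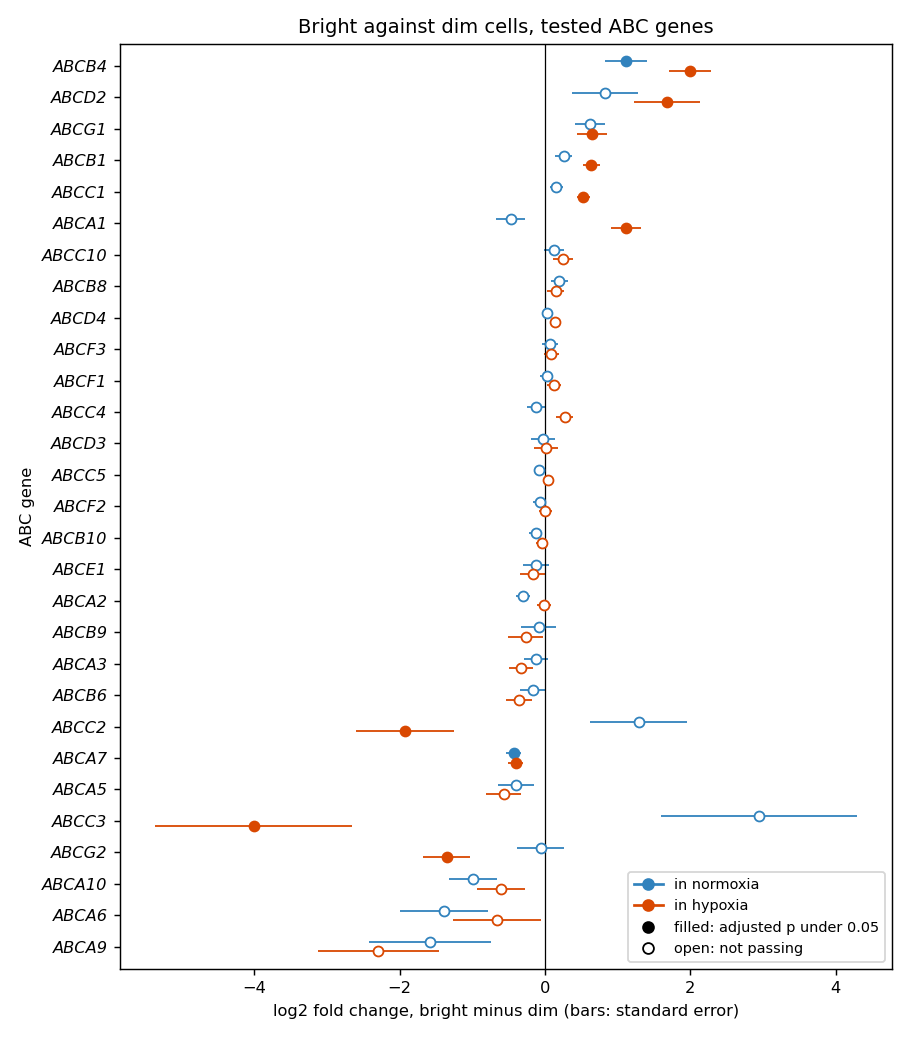
Log2 difference of bright over dim for tested ABC genes in normoxia and in hypoxia, with the standard error as bars and filled points where the adjusted p was under 0.05. Filled points number 2 in normoxia and 10 in hypoxia, where ABCB4, ABCC1, ABCA1 and ABCB1 lie to the higher side and ABCG2 and ABCA7 to the lower side.

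Among the transporters known for drug efflux, the 3 of classical interest did not move together: in hypoxia ABCB1 and ABCC1 were higher in bright cells and ABCG2 was lower. The list held 13 genes, 10 of them tested, and counted 2 higher and 3 lower in bright cells in hypoxia, where 12.9% of all tested genes were higher and 13.6% lower, and none in normoxia, where 6.66% of all passed. ABCB1 encodes P-glycoprotein, the broad-range pump of lipophilic drugs (hg38, chr7:87503863-87713323, minus strand). It was measured at 3035, 3833 and 3697 in normoxic dim, 3967, 4059 and 4554 in normoxic bright, 2727, 3148 and 3855 in hypoxic dim and 4721, 5104 and 5159 in hypoxic bright libraries. All 6 bright libraries lay above all 6 dim ones, and the hypoxic bright group stood above the other 3 groups without overlap. The log2 difference, bright over dim, was 0.64 ± 0.12 (SE, n = 3) in hypoxia, a 1.55-fold higher level with an adjusted p of 0.00235, and 0.26 ± 0.12 in normoxia, with an adjusted p of 0.266. The difference between these was 0.38 ± 0.17, with an adjusted p of 0.207, so a larger gap in hypoxia was not established. Without hypoxic dim 3 this difference passed, at 0.51 with an adjusted p of 0.0415 (limma). ABCB1 was 1 of 4 tested members, 3 higher and 1 lower, whose 6 bright libraries did not overlap the 6 dim ones, as was the case for 7.88% of all tested genes, 3.48% higher and 4.4% lower.

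ABCC1 encodes MRP1, a pump of glutathione conjugates and anthracyclines (hg38, chr16:15949577-16143074, plus strand). Its values were 5323, 6539 and 6200 in normoxic dim, 7397, 6803 and 5904 in normoxic bright, 5005, 5538 and 5281 in hypoxic dim and 7577, 7775 and 7480 in hypoxic bright libraries. The hypoxic groups were apart and the normoxic ones overlapped. In hypoxia bright cells had a 1.44-fold higher level, with a log2 difference of 0.53 ± 0.09 (SE, n = 3) and an adjusted p of 0.00151, and in normoxia the log2 difference was 0.15 ± 0.09, with an adjusted p of 0.408.

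ABCG2, the breast cancer resistance protein (hg38, chr4:88090264-88231417, minus strand), was low throughout. Its values were 46, 33 and 39 in normoxic dim, 32, 56 and 29 in normoxic bright, 41, 71 and 48 in hypoxic dim and 16, 24 and 20 in hypoxic bright libraries. The hypoxic bright group was the lowest of the 4 and overlapped no other, while the 3 others overlapped. Hypoxic bright cells had a 2.55-fold lower level than hypoxic dim cells, a log2 difference of -1.35 ± 0.32 (SE, n = 3) with an adjusted p of 0.0088, against -0.06 ± 0.32 and 0.948 in normoxia. Without the pair of hypoxic libraries highest in epithelial markers, which are also those highest in muscle markers, the log2 difference was -1.26, with an adjusted p of 0.0716.

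Several further efflux genes were abundant and showed no called difference with all 12 libraries. ABCC4, the MRP4 pump of cyclic nucleotides and nucleoside analogues, was at 1492, 2162 and 1852 in normoxic dim, 1725, 1606 and 1665 in normoxic bright, 1318, 1442 and 1652 in hypoxic dim and 1710, 1863 and 1736 in hypoxic bright libraries. Its hypoxic groups did not overlap, and the log2 difference there was 0.27, with a 95% interval from 0.02 to 0.53 and an adjusted p of 0.108. Without hypoxic dim 3 it passed, at 0.36 with an adjusted p of 0.046 (limma). ABCC5, the related MRP5, held 1526, 1554 and 1459, then 1486, 1471 and 1337, then 1476, 1404 and 1475, and then 1400, 1560 and 1547 in the same order of groups. Its levels overlapped in all 4 groups, and the 95% interval of the bright over dim difference in hypoxia ran from -0.11 to 0.21 on the log2 scale. ABCC10, the MRP7 pump of taxanes, was at 904, 1067 and 871 in normoxic dim, 1305, 966 and 859 in normoxic bright, 959, 843 and 828 in hypoxic dim and 978, 1076 and 1069 in hypoxic bright libraries. The hypoxic bright libraries lay above the hypoxic dim ones, and the log2 difference of 0.25 ± 0.14 had an adjusted p of 0.19. How many of all tested genes had hypoxic groups apart in this way was not counted.

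ABCA2 was measured at 35463, 41813 and 39427 in normoxic dim, 34306, 34244 and 26406 in normoxic bright, 34148, 32139 and 31892 in hypoxic dim and 30793, 33670 and 32704 in hypoxic bright libraries. The normoxic dim group was above the other 3 without overlap. In normoxia the log2 difference of bright over dim was -0.30 ± 0.10 (SE, n = 3), with an adjusted p of 0.0892, and in hypoxia it was -0.02, with a 95% interval from -0.23 to 0.20. Without the normoxic libraries highest in muscle markers the normoxic difference passed, at -0.43 with an adjusted p of 0.0467 (limma). ABCA3, a phospholipid transporter of lung surfactant bodies also linked to drug sequestration in leukaemic blasts, was at 242, 260 and 252 in normoxic dim, 232, 239 and 220 in normoxic bright, 358, 268 and 200 in hypoxic dim and 211, 218 and 209 in hypoxic bright libraries. Its normoxic groups did not overlap, its hypoxic dim replicates were the widest apart, and neither comparison of bright with dim passed with all 12 libraries. Without hypoxic dim 3 ABCA3 passed as lower in bright cells in hypoxia, at -0.54 with an adjusted p of 0.0131 (limma). ABCC6, whose loss causes pseudoxanthoma elasticum, was at 33, 12 and 5 in the hypoxic dim libraries and at 5 or less in the other 9, and the filter kept it from the test. With no filter it passed as lower in bright cells in hypoxia, at -3.26 with an adjusted p of 0.00828, and for the difference of the hypoxia effects, at -4.65 with 0.0459. Of its 100-base stretches of exon, 11.5% occurred in other genes as well, among them its pseudogenes. ABCC11 lay between 1 and 8 and ABCB5 between 0 and 4.

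ABCC2 and ABCC3 were the 2 members whose replicates disagreed within a group. Their calls in hypoxia were lost in 5 and in 4, respectively, of 6 fits with 1 hypoxic library left out. ABCC2 encodes MRP2, a conjugate export pump of apical membranes (hg38, chr10:99782598-99852576, plus strand). It was at 44, 62 and 76 in normoxic dim, 175, 322 and 55 in normoxic bright, 92, 733 and 398 in hypoxic dim and 79, 102 and 59 in hypoxic bright libraries. ABCC3 encodes MRP3, its basolateral counterpart (hg38, chr17:50634843-50691704, plus strand), and was at 51, 8 and 24, then 376, 705 and 19, then 55, 1738 and 525, and then 21, 69 and 7 in the same order. For both genes the 4 highest libraries were hypoxic dim 2 and 3 and normoxic bright 1 and 2, and the groups overlapped in both oxygen conditions. Those 4 libraries were also the 4 highest in the sum of epithelial markers, at 16587 in hypoxic dim 2, 5213 in hypoxic dim 3, 3171 in normoxic bright 1 and 6521 in normoxic bright 2. Within hypoxic dim the replicates spanned a 7.28-fold range for ABCC2 and a 26.9-fold range for ABCC3 after 10 was added to each value.

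In hypoxia ABCC3 passed as lower in bright cells, with a log2 difference of -4.01 ± 1.35 (SE, n = 3) and an adjusted p of 0.0435. ABCC2 passed at -1.93 ± 0.67, with an adjusted p of 0.049. Without hypoxic dim 2 neither passed: ABCC3 was at -2.89 with an adjusted p of 0.178 and ABCC2 at -1.28 with 0.204. The calls of both were also lost without hypoxic dim 3, hypoxic bright 1 or hypoxic bright 3, with ABCC3 at -3.97 to -3.24 and ABCC2 at -1.94 to -1.72, and that of ABCC2 without hypoxic bright 2, at -2.12 with 0.0844. In normoxia the fitted differences had the opposite sign, 2.94 ± 1.35 for ABCC3 and 1.29 ± 0.67 for ABCC2, and did not pass. Without the pair of hypoxic libraries highest in epithelial markers, hypoxic dim 2 and hypoxic bright 2, ABCC3 was at -3.69 with an adjusted p of 0.158 and ABCC2 at -1.48 with 0.252.

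**Figure D2:**
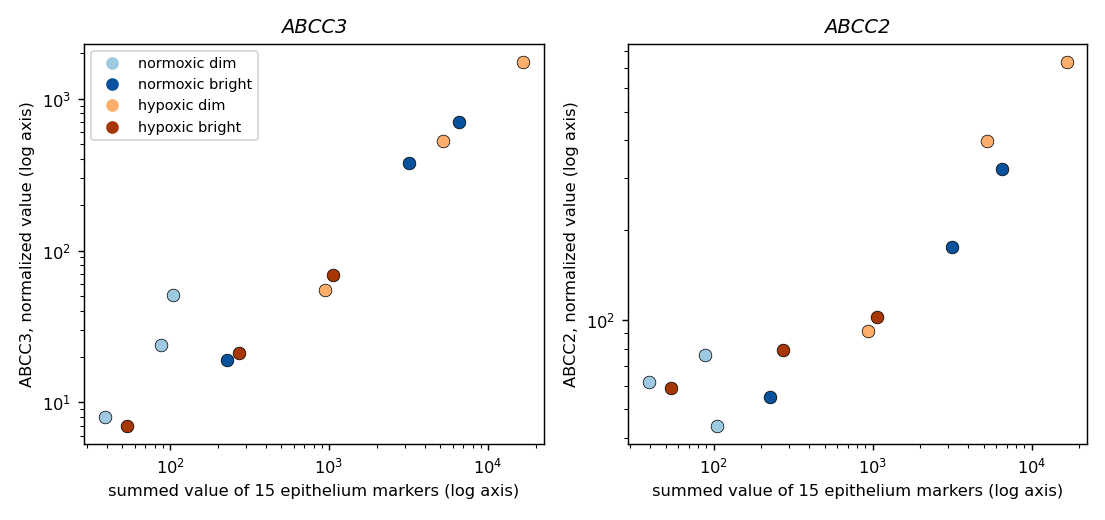
Values of ABCC2 and ABCC3 in the 12 libraries against the sum of the epithelial markers in the same library, on log axes, coloured by group. The 4 libraries with the highest marker sums, from 3171 to 16587, are the 4 with the highest values of both genes.

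Among the lipid and sterol exporters, ABCB4, ABCA1 and ABCG1 were higher and ABCA7 was lower in bright than in dim cells in hypoxia. The list held 9 genes, of which 5 were tested, and 3 rose and 1 fell in that comparison, beside 12.9% higher and 13.6% lower of all tested genes. In normoxia 1 was higher, ABCB4, and 1 was lower, ABCA7. ABCG4, ABCG5, ABCG8 and ABCB11 were not tested, ABCB11, the bile salt export pump, being between 0 and 18.

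ABCB4, the phosphatidylcholine floppase of the bile canaliculus, lies on chromosome 7 beside ABCB1 (hg38, chr7:87402044-87477523, minus strand), 26339 bases from it. It was at 28, 28 and 29 in normoxic dim, 66, 55 and 68 in normoxic bright, 25, 13 and 12 in hypoxic dim and 75, 59 and 64 in hypoxic bright libraries. Every bright library was above every dim library. Bright cells had a 3.97-fold higher level in hypoxia, a log2 difference of 1.99 ± 0.29 (SE, n = 3) with an adjusted p of 0.000522, the lowest of the family there. In normoxia the level was 2.17-fold higher, at 1.12 ± 0.29 with an adjusted p of 0.0334, and this call was lost when any 1 of the 6 libraries was left out, with log2 differences from 1.06 to 1.21. ABCB1 and ABCB4 share little sequence, with 23 of the 100-base stretches of each found in the other, 0.49% of those of ABCB1 and 0.55% of those of ABCB4. How the authors' counting treated reads from these stretches is not given in the sources used here.

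ABCA1 exports cholesterol and phospholipid to apolipoprotein A-I (hg38, chr9:104781002-104928246, minus strand), and it was the member with a called difference between the subsets in the response to oxygen, a call that was lost in 6 of 22 alternatives. Its values were 182, 169 and 162 in normoxic dim, 175, 109 and 97 in normoxic bright, 86, 84 and 74 in hypoxic dim and 173, 199 and 161 in hypoxic bright libraries. The means were 171 ± 10.1 (SD, n = 3), 127 ± 42.0, 81.3 ± 6.43 and 178 ± 19.4 in that order. The hypoxic dim group was the lowest and overlapped no other group. Bright over dim was a 2.17-fold higher level in hypoxia, with a log2 difference of 1.12 ± 0.20 and an adjusted p of 0.00197, while in normoxia it was -0.47 ± 0.20, with an adjusted p of 0.219.

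ABCA7, a phospholipid transporter related to ABCA1 (hg38, chr19:1040103-1065572, plus strand), was at 4217, 4301 and 4030 in normoxic dim, 3357, 3367 and 2638 in normoxic bright, 4772, 4234 and 4034 in hypoxic dim and 2948, 3332 and 3574 in hypoxic bright libraries. The 6 bright libraries, from 2638 to 3574, lay below the 6 dim ones, from 4030 to 4772. The level was 1.35-fold lower in bright cells in normoxia, at a log2 difference of -0.43 ± 0.10 with an adjusted p of 0.0228, and 1.32-fold lower in hypoxia, at -0.40 ± 0.10 with 0.0123. The normoxic call was lost without normoxic bright 3, at -0.31 with an adjusted p of 0.0778, and without any 1 of the 3 normoxic dim libraries, at -0.46 to -0.41 with adjusted p of 0.0582 to 0.0836. The hypoxic call was lost without hypoxic bright 1, at -0.33 with an adjusted p of 0.0631, without the libraries highest in epithelial or in muscle markers, at -0.43 with 0.0825, and without those highest in granule markers, at -0.35 with 0.081.

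The promoter windows of these 2 A members are shown because ABCA1 was the member with a called difference in its response to oxygen and ABCA7, its relative, moved with the subset at both oxygen levels. The windows are those of RefSeq on GRCh38.p14, from 250 bases before to 50 bases after the annotated start, read 5′ to 3′ on the gene's strand, at chr9:104928106-104928405 (minus strand) for ABCA1 and chr19:1039857-1040156 (plus strand) for ABCA7. Capitals mark matches to the core of the hypoxia response element, ACGTG or GCGTG, on either strand.
ABCA1: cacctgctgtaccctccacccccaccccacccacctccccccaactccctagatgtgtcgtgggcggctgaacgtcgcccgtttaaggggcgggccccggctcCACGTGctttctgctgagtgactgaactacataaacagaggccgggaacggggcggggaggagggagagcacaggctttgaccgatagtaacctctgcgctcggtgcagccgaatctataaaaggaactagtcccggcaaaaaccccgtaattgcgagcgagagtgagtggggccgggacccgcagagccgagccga
ABCA7: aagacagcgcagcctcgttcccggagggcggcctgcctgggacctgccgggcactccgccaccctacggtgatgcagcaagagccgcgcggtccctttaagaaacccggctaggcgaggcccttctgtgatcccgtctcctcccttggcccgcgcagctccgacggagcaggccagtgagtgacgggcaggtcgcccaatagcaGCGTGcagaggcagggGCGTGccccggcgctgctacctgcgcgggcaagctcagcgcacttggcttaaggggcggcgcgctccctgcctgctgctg
In ABCA1 the 2 matches overlap within the palindrome CACGTG, and in ABCA7 they are separate and lie nearer the start. Windows were found for 35 of the 46 members, and 20 of them, 57.1%, held a match on either strand, beside 48.4% of all 27305 windows in the table. The ABCA1 window also held 3 matches to the GC box GGGCGG, read on both strands, and the ABCA7 window held 2. This box was present in 51.4% of the member windows and in 44.6% of all. The CCAAT box, read likewise, was in 17.1% of the member windows and in 35.7% of all. ABCA7 held 1 match to it and ABCA1 none. The annotated starts lie 91 bases from the deposited start for ABCA1 and 4 bases for ABCA7. The window of ABCB1, whose annotated start lies 28 bases from the deposited start of that gene, held no match to any of these motifs. Only 1 window was read per gene. Other start sites of ABCB1 were not read, so this says nothing about promoters elsewhere in the gene. These are matches of letters and not sites shown to be bound.

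ABCG1, which moves sterols toward high-density lipoprotein (hg38, chr21:42199689-42304387, plus strand), was at 205, 297 and 264 in normoxic dim, 526, 378 and 296 in normoxic bright, 213, 315 and 268 in hypoxic dim and 450, 411 and 371 in hypoxic bright libraries. The hypoxic groups were apart, and 1 normoxic bright library lay within the dim range. Its level was 1.56-fold higher in bright cells in hypoxia, at a log2 difference of 0.64 ± 0.21 (SE, n = 3) with an adjusted p of 0.0364, and the call was lost without any 1 of these 6 libraries but hypoxic dim 2, at 0.49 to 0.71 with adjusted p of 0.0546 to 0.124. In normoxia the difference was of like size, 0.62 ± 0.21, with an adjusted p of 0.105. ABCA5, a lysosomal sterol transporter, ranged from 561 to 1725 over the 12 libraries and, with all of them, passed in no comparison. Without hypoxic dim 1 it passed as lower in bright cells in hypoxia, at -0.77 with an adjusted p of 0.0355 (limma).

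ABCA5 is 1 of 5 A members that follow each other on chromosome 17 in the order ABCA8, ABCA9, ABCA6, ABCA10 and ABCA5, with gaps of 19223, 10645 and 6014 bases between the first 4 and an overlap of 381 bases between the last pair. Their functions are less well known than those of ABCA1. None of them passed in any comparison with all 12 libraries. In normoxia ABCA10 was at 69, 57 and 98 in dim and 26, 41 and 44 in bright libraries, which did not overlap, at a log2 difference of -0.99 ± 0.33 with an adjusted p of 0.101. ABCA6 ranged from 12 to 27 in normoxic dim and from 5 to 7 in normoxic bright libraries. ABCA9 ranged from 15 to 22 and from 4 to 8 in the same groups. In hypoxia ABCA9 had a log2 difference of -2.29 ± 0.84 with an adjusted p of 0.0589, and the groups overlapped. ABCA9 passed there without hypoxic dim 2 (-2.83, adjusted p of 0.0493, limma) or without hypoxic bright 2 (-3.24, 0.0177). It also passed without the libraries highest in epithelial or in muscle markers (-3.77, 0.0177) and without those highest in granule markers (-3.14, 0.0313). ABCA8 stayed at 8 or less. Exons of ABCA5 and ABCA10 overlap on the same strand over 287 bases, so reads there cannot be assigned to either.

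**Figure D3:**
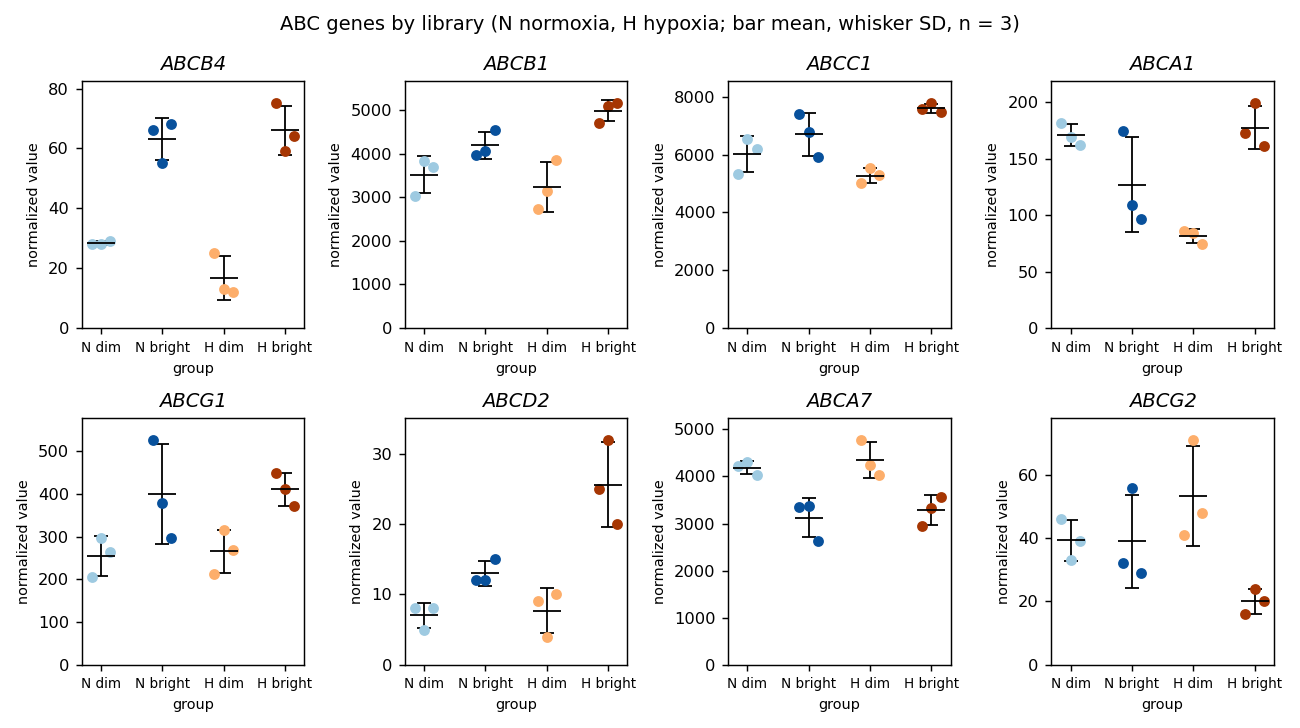
Values of 8 of the 10 ABC genes that passed in at least 1 comparison, ABCC2 and ABCC3 excepted, 1 panel a gene. Points are libraries, bars group means and whiskers the SD, with n = 3. ABCB1, ABCB4 and ABCD2 are higher and ABCA7 lower in all bright than in all dim libraries, and the hypoxic dim libraries are lowest for ABCA1 and the hypoxic bright ones for ABCG2.

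Of the 9 transporters listed for organelles, 1 passed in a comparison. Of the 4 mitochondrial members, none passed in any comparison: ABCB10, which supports haem synthesis, ranged from 1950 to 2367 over the 12 libraries, ABCB8 from 717 to 1085 and ABCB6 from 148 to 309. For bright against dim, 6.66% of all tested genes passed in normoxia and 26.5% in hypoxia. No call among 4 genes is therefore no result about the mitochondrial members. In the GENCODE annotation, 87.3% of the 100-base stretches of ABCB6 also occur in another gene. No other gene with deposited values overlapped the exons of ABCB6. How the authors' counting treated such reads is not given in the sources used here. Among the 5 peroxisomal and lysosomal members, ABCD2 alone passed, higher in bright cells in hypoxia, beside 12.9% higher of all tested genes. ABCD2 carries very long-chain fatty acyl-CoA into peroxisomes (hg38, chr12:39550353-39651328, minus strand) and was the lowest tested member per kilobase. It was at 8, 5 and 8 in normoxic dim, 12, 12 and 15 in normoxic bright, 9, 4 and 10 in hypoxic dim and 25, 32 and 20 in hypoxic bright libraries. The 6 bright libraries lay above the 6 dim ones. The log2 difference in hypoxia was 1.68 ± 0.45 (SE, n = 3), a 3.2-fold higher level with an adjusted p of 0.0163, on values where 1 read was worth between 0.815 and 1.27, and the call was lost without hypoxic dim 2 (1.32, adjusted p of 0.059), hypoxic bright 1 (1.68, 0.0558) or hypoxic bright 2 (1.51, 0.0812).

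ABCD3, a major peroxisomal membrane protein, ranged from 2145 to 3495 and ABCD4, which moves cobalamin out of lysosomes, from 3029 to 3563. ABCB9, a lysosomal peptide transporter, ranged from 53 to 92, and 6.01% of its exon bases overlap OGFOD2 on the opposite strand. The soluble members were abundant and passed nowhere: ABCE1, which splits ribosomes after termination, ranged from 2288 to 4038, ABCF1, ABCF2 and ABCF3 from 5758 to 8349, 4869 to 6794 and 2159 to 3100. Beside 26.5% of all tested genes called for bright against dim in hypoxia, no call among these 4 is no result about them. Exons of ABCE1 overlap ANAPC10 on the opposite strand over 403 bases, and 52.7% of the 100-base stretches of ABCF2 occur in another gene of the GENCODE annotation.

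Hypoxia against normoxia within a subset gave no called ABC gene by limma. In dim cells 0 of 31 passed, beside 0.232% of all tested genes, 0.199% higher and 0.0332% lower. In bright cells 0 of 31 passed, beside 0.837% of all, 0.478% higher and 0.359% lower. At an unadjusted p under 0.05 there were 9 members in dim and 3 in bright cells, and no other tool was run. In dim cells ABCA1 came nearest, at a log2 difference of -1.06 ± 0.20 (SE, n = 3) with an adjusted p of 0.0567, and its 3 hypoxic libraries lay below the 3 normoxic ones. ABCA1 passed there without hypoxic dim 3, at -0.998 with an adjusted p of 0.0336. It also passed with the replicate number as a block, with an adjusted p of 0.0337, though the numbers were not taken as pairs. ABCC2, at 2.32 ± 0.67 with an adjusted p of 0.138, passed without hypoxic dim 1, at 3.17 with 0.0285. Groups in dim cells were also apart for ABCC3 at 4.03 ± 1.35, ABCB4 at -0.80 ± 0.29, ABCF2 at -0.26 ± 0.09 and ABCA2 at -0.25 ± 0.10, among others, with adjusted p from 0.164 to 0.216 for these 4. The share of all tested genes with groups apart was not counted here, so this does not set these members off. In bright cells the lowest adjusted p was that of ABCG2, 0.214, at -0.89 ± 0.32 with groups apart. ABCB1 and ABCC1 were at 0.25 ± 0.12 and 0.19 ± 0.09 there, with adjusted p of 0.326 and 0.339, and their hypoxic bright libraries lay above all normoxic bright ones. These comparisons share libraries with those of bright and dim, and each value is given for itself.

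Of 10 genes listed as hypoxia-induced, 4 rose in hypoxic bright cells, among them VEGFA at 0.67 ± 0.10 and BNIP3 at 1.29 ± 0.21 on the log2 scale, and none passed in dim cells. Beside these, 0.478% of all tested genes were higher in bright cells, and 0.232% passed in dim cells.

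The effect of hypoxia in bright minus that in dim cells passed for 1 of the 31 members, beside 2.36% of all tested genes, 1.1% with a positive and 1.26% with a negative difference. It was ABCA1, at 1.59 ± 0.28 (SE) on the log2 scale with an adjusted p of 0.0191: the fitted effect of hypoxia was -1.06 in dim and 0.52 ± 0.20 in bright cells. Left out singly, normoxic dim 2, normoxic bright 2 and hypoxic bright 1 each took the adjusted p above the threshold (0.0522, 0.0599 and 0.0601). Without the library highest in epithelial markers in each group it was 1.40 with an adjusted p of 0.327, and without those highest in granule markers 1.41 with 0.0861. For the drug pumps the difference was not established, at 0.38 ± 0.13 for ABCC1 with an adjusted p of 0.118 and at -1.29 ± 0.46 for ABCG2 with 0.127.

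Family members under other symbols and the partners of the family were read beside it. TAP1, an ABC transporter that loads peptides for MHC class I, was at 9507, 8628 and 7756 in normoxic dim, 5330, 5131 and 4808 in normoxic bright, 8068, 7207 and 6604 in hypoxic dim and 5338, 5147 and 5200 in hypoxic bright libraries. All bright libraries lay below all dim ones, and the log2 difference was -0.76 ± 0.09 in normoxia with an adjusted p of 0.000118 and -0.48 ± 0.09 in hypoxia with 0.00209. Its partner TAP2 ranged from 5007 to 6563 and did not pass, and CFTR was at 0 in all libraries. Of 16 sterol partners, 2 rose in bright cells in hypoxia, among them the sterol regulator SREBF2 at 0.31 ± 0.09, and 1 fell in normoxia, the nuclear receptor RXRA at -0.69 ± 0.14. Beside these, 12.9% of all tested genes were higher in hypoxia and 3.79% lower in normoxia, so the counts are no result about sterol partners.

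Of 14 tested regulators of efflux genes, 6 rose and 2 fell in bright cells in hypoxia, beside 12.9% higher and 13.6% lower of all tested genes. In normoxia only EPAS1 passed, beside 6.66% of all. EPAS1 encodes the hypoxia-inducible factor HIF-2 alpha, had mean values of 428 in normoxic dim, 1015 in normoxic bright, 336 in hypoxic dim and 758 in hypoxic bright libraries, and was higher in bright cells by 1.23 ± 0.16 in normoxia and 1.20 ± 0.16 in hypoxia on the log2 scale. FOXO3, a stress-response factor, rose by 0.45 ± 0.10 in hypoxia. MVP, the major vault protein once named lung resistance protein, fell by 2.84 ± 0.62, at 158, 359 and 115 in hypoxic dim and 20, 42 and 19 in hypoxic bright libraries. The libraries highest in MVP and in epithelial markers within these groups were the same, hypoxic dim 2 and hypoxic bright 2, and their part in the value was not tested.

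Of 16 genes of glutathione synthesis and conjugation, which supply the substrates of C members, 1 rose and 5 fell in bright cells in hypoxia, beside 12.9% higher and 13.6% lower of all tested genes, and 3 fell in normoxia, beside 3.79% lower of all. Those with the smallest adjusted p were the glutathione transferase GSTO1 at -0.45 ± 0.06 and glutathione reductase GSR at -0.49 ± 0.09 in hypoxia, and the cystine carrier SLC7A11 at -0.76 ± 0.17 in normoxia. Of 8 tested genes of nucleoside drug uptake and activation, RRM2, a subunit of ribonucleotide reductase, fell by 0.49 ± 0.10 in bright cells at both oxygen levels, and the nucleoside carrier SLC29A2 fell by 0.28 ± 0.09 in hypoxia. Beside these, 3.79% of all tested genes were lower in normoxia and 13.6% in hypoxia. Of 16 haem and iron-sulfur partners 1 passed in hypoxia, SLC25A39, the mitochondrial glutathione carrier, at -0.29 ± 0.09, beside 13.6% lower of all tested genes. Of 14 peroxisomal partners of the D subfamily none passed in any comparison. For bright against dim, 6.66% of all tested genes passed in normoxia and 26.5% in hypoxia.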

How the data were processed

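RNA sequencing of mRNA was read from 12 libraries of sorted KG1a cells. Per the submitters' processing notes, Trimmomatic 0.39, STAR 2.4.2a and hg38 were used, while the sources used here give no counting tool, annotation or strand. The deposited score per gene is a whole number that the authors made by size-factor normalization and rounding, as read from the values: the median, over genes, of a library's ratio to each gene's geometric mean was between 1.00303 and 1.00422. No test for raw counts was used on them.

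Log2 of the value plus 1 was modelled in limma 3.58.1 (R 4.3.3, mean trend, 4 group means, all 12 libraries, 8 residual degrees of freedom) for the 15057 genes with at least 10 in at least 3 libraries, with Benjamini-Hochberg adjustment over all of them at 0.05, 2-sided. Folds come from these fitted values, which understates changes of low genes. The fit was tested on simulated data. Where groups of 3 libraries are said to be apart or not to overlap, the share of all tested genes with groups apart was not counted.

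The members and lists were chosen with earlier results of these data known. Values per library were given for called members with a group mean of at least 100, for drug efflux members with a group mean of at least 10, and for members whose replicates differed over 4-fold after 10 was added. ABCA10, ABCB4 and ABCD2 fall outside this and were given after their values were seen. Genes outside the family were named from the lists, up to 2 per list, comparison and direction. A few genes are counted and tested with the rest but not reported here or drawn.

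Promoter windows came from a RefSeq table on GRCh38.p14. Stretches of 100 bases shared between genes came from transcripts of the GENCODE annotation, and exon overlaps from the deposited exon coordinates. Protein sequences were not used here. Alternatives were another scaling, no trend, other filters and pseudocounts, only the groups compared, a replicate block, each library left out, and the library of each group highest in a marker list left out.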

Additional observations from a re-analysis of the deposited data

Results flagged for a closer look

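ABCA1 stood out because its response to hypoxia differed between bright and dim cells by a test of the difference itself. The effect of hypoxia in bright minus that in dim cells was 1.59 on the log2 scale, with a standard error of 0.28 and an adjusted p of 0.0191 (limma), from 0.52 in bright and -1.06 in dim cells. All 3 hypoxic dim libraries lay below all 3 normoxic dim ones, while the hypoxic and normoxic bright libraries overlapped. The call was lost in 6 of 22 alternatives, with an adjusted p of up to 0.327, reached without the library highest in epithelial markers in each group.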

How the results depend on the processing

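Counts of called members kept within 1.5 times of the reported ones under another scaling, only the groups compared and pseudocounts of 0.1 and 10. For bright against dim in normoxia, reported as 2, the count was 1 without the mean trend or without the filter. It was 1 as well with a mean filter of 50, and in each of these settings the gene was a reported one. Leaving out the libraries highest in muscle markers also gave 1, but this was ABCA2, at -0.43 with an adjusted p of 0.0467 (limma). ABCA7 and ABCB4 were then both lost, at -0.48 with 0.061 and at 1.08 with 0.17. The count fell to 0 when the libraries highest in epithelium or in granule markers were left out. In hypoxia, reported as 10, it was 5 without the libraries highest in epithelium or in muscle markers, which are the same pair; 4 of these were among the 10, the fifth being ABCA9 at -3.77 with an adjusted p of 0.0177, and ABCA7, ABCC2, ABCC3, ABCD2, ABCG1 and ABCG2 were lost. For the difference of the hypoxia effects, reported as 1, it was 0 without the trend and without the libraries highest in epithelium markers, and 2 without the filter and without the libraries highest in granule markers; in the last setting these were ABCC2 and ABCC3. Leaving out 1 library gave 0 to 2 for bright against dim in normoxia, 5 to 10 in hypoxia (5 without hypoxic bright 1), 0 to 2 for hypoxia in dim cells (2, ABCA1 among them, without hypoxic dim 3), 0 to 0 in bright cells and 0 to 3 for the difference.

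Of 222 values of called genes over all settings, 156 stayed past the threshold, 66 did not and 0 changed sign. In hypoxia ABCC1, ABCA1 and ABCB1 passed in all 17 settings tried, and ABCB4 in 16, its mean being under the filter of 50. In the order ABCB4, ABCC1, ABCA1 and ABCB1 the highest adjusted p over these settings were 0.0118, 0.0229, 0.0364 and 0.0452.

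Same-numbered libraries of different groups deviated with correlations from -0.23 to 0.45, over 0.1 in 7 of 18 pairs, and 7 of 12 libraries correlated best with their own number, so the numbers were not taken as pairs. With the replicate number as a block, the counts were 2, 10, 1, 0 and 1 in the order of comparisons above, hypoxia in dim cells gaining ABCA1 at -1.06 with an adjusted p of 0.0337, and all 13 calls were kept. With 3 libraries a group and about 1 unit per read, members at a few units, such as ABCD2, ABCA6 and ABCC6, are measured with few reads, and 15 members were too low to test.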
